A study of Arabidopsis thaliana with 12 samples.

Results

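The core circadian clock of Arabidopsis rosettes was followed through 10 genes that were picked by locus, out of 34212 gene loci in the count table. The 10 are CCA1 (AT2G46830), LHY (AT1G01060), RVE8 (AT3G09600), PRR9 (AT2G46790), PRR7 (AT5G02810), PRR5 (AT5G24470), GI (AT1G22770), TOC1 (AT5G61380), LUX (AT3G46640) and ELF3 (AT2G25930). They were chosen because morning genes were lower and some evening genes higher in ozone in these libraries. The values in O3 and clean air are therefore a description here, with no test. All 10 were present in the table and all 10 passed the only filter on low values, a count in at least 1 library, which kept 28549 genes.

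RNA-seq had been performed on whole rosettes of plants aged 3 weeks, raised in soil under 12 h of light and 12 h of darkness. The ozone-sensitive accessions Shahdara (Sha) and Cvi-0 (Cvi), which are natural inbred lines, were each treated with 350 nL L-1 ozone (O3) or with clean air (CA) for 2 h. The 4 groups were Sha in O3, Sha in CA, Cvi in O3 and Cvi in CA, with 3 biological replicates each, and every library came from 4 pooled rosettes. Library totals ranged from 10794686 to 33571953 counts. The time of day at which the rosettes for RNA-seq were harvested is not given in the sources used here.

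In the plant clock, a set of transcription factors is switched on in turn through the day and night, each repressing or activating others. CCA1 and LHY, MYB-related proteins of dawn, repress evening genes by binding a short DNA motif in their promoters, the evening element. The pseudo-response regulators PRR9, PRR7, PRR5 and TOC1 appear in sequence from morning to evening and repress CCA1 and LHY, while RVE8 activates evening genes, and LUX and ELF3 form, with ELF4, the evening complex that represses PRR9, PRR7 and other genes at night. In leaves the clock sets the daily timing of genes for photosynthesis, starch turnover, growth and stress defence.

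The evening element is the sequence that ties the dawn proteins to the evening genes, so its copies in the members are shown. The letters AAAATATCT were searched on both strands in the 1000 bases upstream of the annotated start of each gene in the TAIR10.1 assembly, credited to RefSeq. That assembly is the Col-0 genome, not the sequence of Sha or Cvi. The motif was present upstream of 4 of the 10 members (PRR5 and GI with 3 copies each, TOC1 and LUX with 1 copy each), and upstream of 7.14% of 25124 protein-coding genes tested. Each copy is printed in the direction of its gene with 10 bases on either side. Capitals mark the motif, which reads AGATATTTT where it lies on the other strand.
PRR5, chr5:8359244-8359272, minus strand: cactagcattAGATATTTTttgggtttgg
PRR5, chr5:8358820-8358848, minus strand: caattctactAGATATTTTttcaaatcca
PRR5, chr5:8358715-8358743, minus strand: gattttttctAGATATTTTcttttctcca
GI, chr1:8060932-8060960, plus strand: gtaagattttAAAATATCTtaaaagatgt
GI, chr1:8060964-8060992, plus strand: aggcccatttAGATATTTTctcaacgggc
GI, chr1:8061150-8061178, plus strand: agctcccctcAAAATATCTgtggacatat
TOC1, chr5:24674802-24674830, plus strand: aaatatcatgAGATATTTTctccaagatg
LUX, chr3:17182979-17183007, plus strand: tagaagatctAAAATATCTagctaactcg
The copies began at -716, -292 and -187 in PRR5, at -809, -777 and -591 in GI, at -151 in TOC1 and at -53 in LUX, counted from the annotated start. None of these windows overlapped an annotated exon. No AAAATATCT was found in this window of CCA1, LHY, RVE8, PRR9, PRR7 or ELF3.

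Other clock-linked motifs were counted in the same windows. The G-box CACGTG, bound by light-regulated bHLH and bZIP proteins, was present upstream of 6 members (CCA1, LHY, RVE8, PRR9, PRR7 and LUX) and of 15.1% of the promoters. The LUX site, GATACG or GATTCG, was present in 7 members, against 40.0% of promoters. The TCP site TGGGCC was found in 6 members, against 25.3% of promoters, and the CCA1-binding site, AAAAATCT or AACAATCT, in 4 members, against 27.5%. None of these strings contains another. The last 250 bases before the start are shown for 2 members that were lower in O3 (CCA1 and PRR9) and 2 that were higher (TOC1 and LUX), with each occurrence of any of the 5 motifs in capitals.
CCA1, chr2:19245341-19245590, plus strand: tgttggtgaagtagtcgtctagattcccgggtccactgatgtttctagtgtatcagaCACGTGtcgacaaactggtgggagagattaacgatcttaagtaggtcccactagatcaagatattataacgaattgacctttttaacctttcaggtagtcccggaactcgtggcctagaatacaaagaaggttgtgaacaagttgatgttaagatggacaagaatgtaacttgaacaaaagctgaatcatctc
PRR9, chr2:19232357-19232606, plus strand: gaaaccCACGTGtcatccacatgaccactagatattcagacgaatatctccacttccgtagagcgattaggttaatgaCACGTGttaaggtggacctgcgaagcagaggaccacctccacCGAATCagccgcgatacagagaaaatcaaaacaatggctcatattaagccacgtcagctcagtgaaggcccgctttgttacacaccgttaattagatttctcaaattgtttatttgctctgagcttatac
TOC1, chr5:24674713-24674962, plus strand: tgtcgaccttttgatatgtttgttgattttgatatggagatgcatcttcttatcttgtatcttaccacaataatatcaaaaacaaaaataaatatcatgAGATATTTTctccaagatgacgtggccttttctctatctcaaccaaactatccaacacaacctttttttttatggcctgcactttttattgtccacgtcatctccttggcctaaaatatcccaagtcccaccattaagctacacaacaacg
LUX, chr3:17182792-17183041, plus strand: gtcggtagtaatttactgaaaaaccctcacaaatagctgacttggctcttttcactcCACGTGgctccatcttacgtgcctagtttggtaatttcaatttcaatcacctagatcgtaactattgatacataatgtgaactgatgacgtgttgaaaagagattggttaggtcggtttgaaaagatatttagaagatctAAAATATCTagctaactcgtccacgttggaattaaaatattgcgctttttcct
Within these stretches, of the 5 motifs searched, CCA1 held a G-box. PRR9 held a pair of G-boxes and a LUX site read on the other strand. TOC1 held an evening element, and LUX a G-box and an evening element. A match of letters is a description and no evidence of binding.

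Levels are given as CPM, the counts of a gene per 1000000 counts of its library, scaled by library sizes adjusted with the trimmed mean of M-values (TMM). CCA1, the dawn repressor, was at 82.3, 84.0 and 42.9 CPM in Sha O3, against 177.0, 251.5 and 167.6 CPM in Sha CA. The Cvi values were 49.1, 49.9 and 52.5 CPM in O3, against 164.6, 155.5 and 99.2 CPM in CA. All O3 libraries lay below all CA libraries of the same accession, and the 3 Cvi O3 libraries were nearly equal. The log2 fold change of O3 over CA was -1.51 in Sha (SE 0.27) and -1.47 in Cvi (SE 0.27), the largest decreases among the 10 members in both accessions. In whole rosettes, fewer cells expressing a gene and less of its RNA per cell cannot be told apart.

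LHY, the close partner of CCA1, was at 37.8, 40.0 and 24.2 CPM in Sha O3, against 52.1, 85.5 and 59.9 CPM in Sha CA, and the groups did not overlap. In Cvi it was at 30.8, 25.9 and 38.4 CPM in O3, against 53.3, 51.4 and 31.8 CPM in CA. There the third CA library lay among the O3 libraries. The log2 fold changes were -0.96 in Sha (SE 0.27) and -0.52 in Cvi (SE 0.27). Without the third Sha O3 library the Sha value was -0.68.

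RVE8 is a MYB-related protein of the same family that activates evening genes. It was at 29.1, 28.9 and 21.4 CPM in Sha O3, against 36.9, 39.0 and 34.1 CPM in Sha CA. Its Cvi levels were 14.1, 11.6 and 17.9 CPM in O3, against 29.7, 31.9 and 22.9 CPM in CA. The O3 libraries were the lower ones in both accessions, with no overlap, and the log2 fold changes were -0.47 in Sha (SE 0.20) and -0.95 in Cvi (SE 0.20).

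PRR9, the morning pseudo-response regulator, was at 34.3, 41.9 and 29.9 CPM in Sha O3, against 57.0, 65.7 and 62.7 CPM in Sha CA. Cvi rosettes had 31.9, 40.6 and 35.2 CPM in O3, against 59.6, 64.5 and 55.5 CPM in CA. The accessions gave nearly the same levels in each treatment, and O3 and CA libraries were separate in both. On the log2 scale O3 over CA was -0.81 in Sha (SE 0.17) and -0.74 in Cvi (SE 0.16). A stretch of 440 bases of its transcript is 99.3% identical to AT2G46670, so reads from that stretch could be shared between the loci.

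PRR7, which follows PRR9 in the day, differed less. It was at 152.3, 156.4 and 163.1 CPM in Sha O3, against 172.6, 198.0 and 191.8 CPM in Sha CA. Cvi libraries held 116.9, 126.8 and 139.0 CPM in O3, against 137.3, 169.7 and 157.5 CPM in CA. The Sha groups were separate while in Cvi the highest O3 library lay just above the lowest CA library. Log2 fold changes were -0.25 in Sha (SE 0.16) and -0.28 in Cvi (SE 0.16).

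PRR5, the afternoon member of the family, was scarce. It was at 3.25, 1.21 and 5.69 CPM in Sha O3, from 45, 20 and 151 counts, against 1.18, 0.80 and 1.03 CPM in Sha CA, from 13, 11 and 30 counts. Cvi gave 1.09, 2.68 and 2.40 CPM in O3, against 0.63, 1.12 and 1.87 CPM in CA. The O3 libraries were higher in Sha, the second by very little, and the Cvi groups overlapped. The log2 fold changes were 1.76 in Sha (SE 0.56) and 0.78 in Cvi (SE 0.54), and the Sha value was 1.21 without the third Sha O3 library.

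TOC1, the evening repressor of CCA1 and LHY, was at 34.9, 18.5 and 35.2 CPM in Sha O3, against 13.3, 12.0 and 16.2 CPM in Sha CA. Cvi libraries reached 52.4, 61.4 and 51.7 CPM in O3, against 10.7, 11.8 and 13.9 CPM in CA. Every O3 library was above every CA library, and the second Sha O3 library was the lowest of the O3 set. Log2 fold changes were 1.09 in Sha (SE 0.24) and 2.18 in Cvi (SE 0.23).

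LUX, the DNA-binding subunit of the evening complex, was at 11.3, 9.95 and 19.0 CPM in Sha O3, against 3.26, 1.74 and 2.89 CPM in Sha CA. In Cvi it was at 5.11, 5.0 and 5.29 CPM in O3, against 1.91, 1.01 and 2.88 CPM in CA. The O3 libraries were higher in both accessions, with no overlap. The log2 fold changes were 2.35 in Sha (SE 0.35), the largest increase among the members there, and 1.42 in Cvi (SE 0.35). LUX overlaps AT3G46650 on the opposite strand, and the use of strand in read assignment is not given in the sources used here.

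ELF3, the scaffold of the evening complex, was at 16.4, 12.1 and 19.7 CPM in Sha O3, against 13.6, 11 and 12.6 CPM in Sha CA. The Cvi levels were 8.24, 15.3 and 9.72 CPM in O3, against 8.78, 9.43 and 10.7 CPM in CA. The groups overlapped in both accessions, and the log2 fold changes were 0.38 in Sha (SE 0.25) and 0.20 in Cvi (SE 0.24). Like LUX, it overlaps genes on the opposite strand (AT2G08135 and AT2G25940).

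GI, a protein of the afternoon that stabilises the photoreceptor ZTL and promotes flowering, was at 34.7, 37.8 and 34.0 CPM in Sha O3, against 36.4, 34.4 and 26.4 CPM in Sha CA. The levels in Cvi were 24.8, 26.7 and 23.9 CPM in O3, against 31.3, 42.3 and 41.6 CPM in CA. The Sha groups overlapped, whereas all Cvi O3 libraries lay below all Cvi CA libraries. The log2 fold changes were 0.14 in Sha (SE 0.17) and -0.61 in Cvi (SE 0.17).

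**Figure D1:**
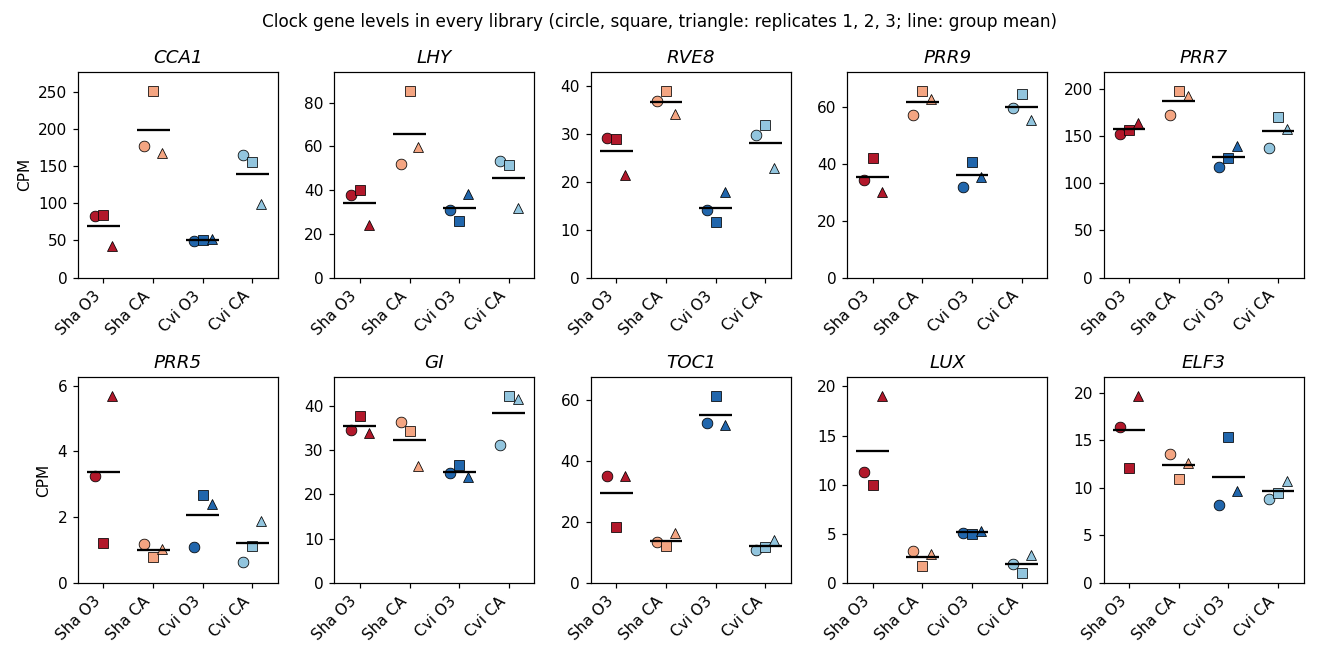
Level of each of the 10 clock genes in CPM (y axis, from 0) in every library of the 4 groups (x axis), with circles, squares and triangles for replicates 1, 2 and 3 and a line at the group mean. CCA1, RVE8 and PRR9 lay lower in every O3 library than in every CA library of the same accession, and TOC1 and LUX higher.

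In Sha, 5 members had all O3 libraries below all CA libraries and 3 had them all above. In Cvi these counts were 4 and 2. These counts follow from how the members were chosen and are given without a reading. The share of all genes with libraries separated in this way was not computed. The shares of all genes below are of calls, a different measure. For all genes, a call here means a false discovery rate (FDR) of at most 0.05 against a change of 1.2-fold in edgeR, and 17.9% of all genes were called higher and 16.6% lower in Sha O3 than in Sha CA, with 24.3% higher and 23.2% lower in Cvi. The log2 fold change was negative for 5 members in Sha and 6 in Cvi. Single libraries moved some values. Without the third Sha O3 library the Sha value was -1.17 for CCA1, -0.25 for RVE8 and -0.60 for PRR9, without the third Cvi CA library the Cvi value of LUX was 1.80, and without the second Cvi O3 library the Cvi value of ELF3 was -0.10, a change of sign.

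**Figure D2:**
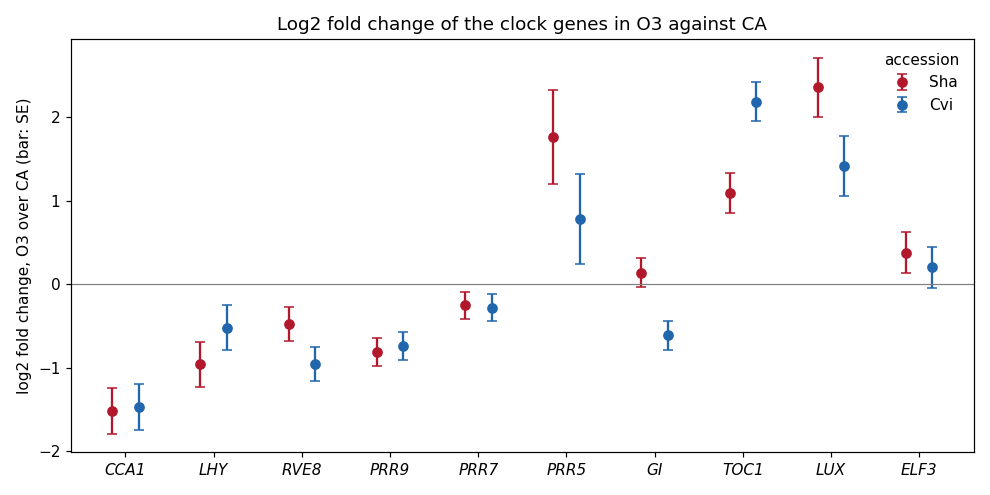
Log2 fold change of O3 over CA (y axis) of the 10 clock genes (x axis) in Sha (red) and Cvi (blue), with bars of 1 SE from the fitted model. CCA1 was at -1.51 in Sha and -1.47 in Cvi, while TOC1 was at 1.09 in Sha and 2.18 in Cvi.

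The balance of dawn and evening transcripts can be read within each library, with levels divided by the length of the longest annotated transcript so that genes can be set side by side. The summed level of CCA1 and LHY over that of TOC1 and LUX, in CPM per kilobase, was 2.78, 4.73 and 1.33 in Sha O3, against 14.8, 26.0 and 12.6 in Sha CA. In Cvi it was 1.44, 1.19 and 1.65 in O3, against 18.4, 17.0 and 8.32 in CA. The ratio was above 1 in every library, and the O3 libraries of both accessions lay below all CA libraries. Its mean was 2.95 ± 1.71 in Sha O3, 17.8 ± 7.16 in Sha CA, 1.43 ± 0.23 in Cvi O3 and 14.5 ± 5.44 in Cvi CA (SD, n = 3 each). These 4 genes were taken for their direction, so no test was made of the ratio.

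**Figure D3:**
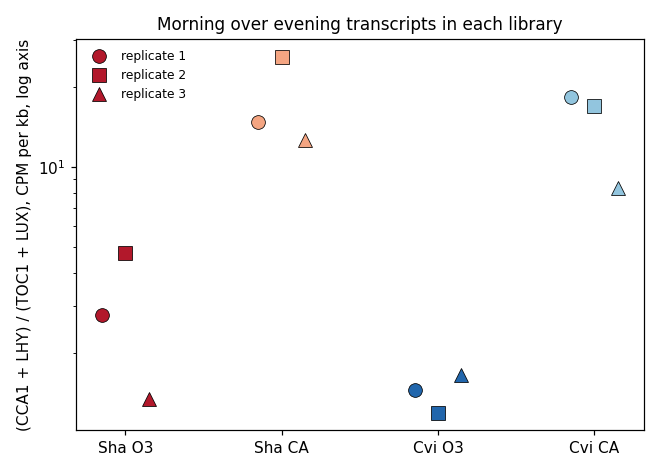
Summed level of CCA1 and LHY divided by that of TOC1 and LUX, both in CPM per kilobase (y axis, log scale), in each library of the 4 groups (x axis). The O3 libraries sat between 1.19 and 4.73 and the CA libraries between 8.32 and 26.0.

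The order of levels per kilobase was alike in CA in the accessions. In Sha CA it ran from CCA1 (75.6 ± 17.5 CPM per kilobase) through PRR7 (58.0 ± 4.10), PRR9 (30.2 ± 2.15), LHY (22.5 ± 5.96), RVE8 (18 ± 1.21), GI (7.53 ± 1.23), TOC1 (4.93 ± 0.77) and ELF3 (4.51 ± 0.48) to LUX (0.81 ± 0.24) and PRR5 (0.60 ± 0.11; SD, n = 3 each). Libraries of neighbours overlapped between PRR9 and LHY, LHY and RVE8, TOC1 and ELF3, and LUX and PRR5. In Cvi CA the order was the same except that PRR5 (0.72 ± 0.37) stood before LUX (0.60 ± 0.29), a pair that overlapped, as did CCA1 (53.2 ± 13.5) and PRR7 (47.9 ± 5.07).

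In O3, PRR7 was the highest member per kilobase in both accessions, at 48.7 ± 1.69 in Sha and 39.5 ± 3.43 in Cvi. TOC1 held the seventh place in CA in both accessions. In Sha O3 it stood sixth, at 10.5 ± 3.42 CPM per kilobase, and overlapped its neighbours LHY (11.6 ± 2.92) and GI (8.25 ± 0.47). In Cvi O3 it stood second, at 19.6 ± 1.92, and overlapped CCA1 (19.2 ± 0.68), the next in order. LUX and PRR5 kept the last places, at 4.15 ± 1.51 and 2.02 ± 1.34 in Sha O3, and at 1.58 ± 0.05 and 1.23 ± 0.50 in Cvi O3.

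Libraries of the same group also differed in these genes. The second Sha library had more of the dawn transcripts and less of the evening transcripts than its group in O3 and in CA. Its log2 CPM deviated from the group mean by 0.33 in O3 and 0.36 in CA for CCA1, by 0.27 in O3 and 0.41 in CA for LHY, by -0.62 in O3 and -0.19 in CA for TOC1, and by -0.37 in O3 and -0.52 in CA for LUX. The first Sha O3 library was also above its group mean for CCA1 (0.30) and LHY (0.19). The third Sha O3 library deviated the opposite way, with -0.64 for CCA1, 0.56 for LUX and 0.98 for PRR5. The third Cvi CA library did so too, with -0.46 for CCA1, -0.48 for LHY, 0.67 for LUX and 0.72 for PRR5. Over the 12 libraries, deviations from group means had a Pearson r of 0.90 between CCA1 and LHY, 0.87 between LHY and RVE8, -0.83 between CCA1 and LUX, and 0.81 between PRR5 and TOC1. Both genes of a pair share each library's depth and scaling, and these values carry no test. With both second Sha libraries left out, the Sha response was -1.39 for CCA1, -0.79 for LHY, 1.3 for TOC1, 2.40 for LUX and 2.11 for PRR5.

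Whether the accessions differed in these genes was not part of the choice, although the O3 libraries entered both. Under ozone, TOC1 was higher in Cvi (55.2 ± 5.40 CPM) than in Sha (29.5 ± 9.59 CPM), with a log2 difference of 0.90 (SE 0.23, edgeR FDR = 0.00339), and all 3 Cvi libraries were above all 3 Sha libraries. LUX was lower, at 5.14 ± 0.15 CPM in Cvi and 13.4 ± 4.90 CPM in Sha, a log2 difference of -1.39 (SE 0.34, edgeR FDR = 0.00101). RVE8 was lower too, at 14.5 ± 3.17 CPM in Cvi and 26.5 ± 4.40 CPM in Sha, a log2 difference of -0.86 (SE 0.20, edgeR FDR = 0.00195), again with no overlap in either (SD, n = 3 per group). Thus 1 member was called higher in Cvi, where 18.5% of all genes were, and 2 lower, where 13.9% of all genes were. The other 7 did not pass, with GI at -0.50 (SE 0.17, 95% interval -0.84 to -0.16, edgeR FDR = 0.0756) and ELF3 at -0.54 (SE 0.24, 95% interval -1.02 to -0.06, edgeR FDR = 0.128). Without the third Sha O3 library 5 members were called, CCA1 and GI among them, and without both second Sha libraries 5, with PRR5 and ELF3 added.

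In CA, none of the 10 members was called between Cvi and Sha with edgeR, with its quasi-likelihood test or with DESeq2, and 0 had an unadjusted p under 0.05 against the 1.2-fold change. Of all genes tested, 8.84% were called higher and 9.28% lower in Cvi. CCA1 averaged 139.8 ± 35.5 CPM in Cvi and 198.7 ± 46.0 CPM in Sha, a log2 difference of -0.51 with a 95% interval from -1.04 to 0.03. LHY averaged 45.5 ± 11.9 CPM in Cvi and 65.9 ± 17.5 CPM in Sha, a difference of -0.53 with an interval from -1.06 to -0.01. RVE8 averaged 28.2 ± 4.72 CPM in Cvi and 36.7 ± 2.47 CPM in Sha, a difference of -0.38 with an interval from -0.77 to 0.01. All 3 Cvi libraries lay below all 3 Sha libraries for CCA1, RVE8, PRR7 and ELF3 in CA, though none of these was called. In O3 they did so for RVE8, PRR7, GI and LUX, of which RVE8 and LUX were called, and lay above for TOC1. The share of all genes with accessions separated in this way was not computed. TOC1 was at 12.1 ± 1.62 CPM in Cvi and 13.8 ± 2.16 CPM in Sha (SD, n = 3 each), a difference of -0.20 with an interval from -0.67 to 0.27. The intervals of TOC1, PRR9 (-0.37 to 0.28), LUX (-1.18 to 0.27) and PRR5 (-0.85 to 1.37) leave room for differences of over 1.2-fold in either direction.

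The log2 response of Cvi minus that of Sha addressed whether O3 moved a gene differently in the accessions. TOC1 was the 1 member called, at 1.1 (SE 0.33, edgeR FDR = 0.0305), which means a larger increase in Cvi. Over all genes, 6.33% were called with a higher and 2.6% with a lower response in Cvi. The TOC1 call was lost with the quasi-likelihood test of edgeR (FDR = 0.0595), with DESeq2 (FDR = 0.0756) and without any 1 of 7 libraries (the first and the third of Sha CA, the first and the second of Cvi CA, and each of Cvi O3), where edgeR FDR values ran from 0.0521 to 0.107 and the difference from 0.95 to 1.14. GI was at -0.75 (SE 0.24, edgeR FDR = 0.0670), with the Cvi value negative and the Sha value near 0.

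With the replicate number as a block, the GI difference was -0.75 at an edgeR FDR of 0.0490, and with a block of its own in each accession at an FDR of 0.0182, so that GI was called beside TOC1. It was also called without the first Sha CA library (FDR = 0.0479), without the first Cvi CA library (FDR = 0.0237) and without both second Sha libraries (edgeR FDR = 0.0381). For the other 8 members the difference did not pass in any alternative run. Its 95% interval ran from -0.72 to 0.80 for CCA1, from -0.31 to 1.18 for LHY, from -0.39 to 0.53 for PRR9, from -0.46 to 0.41 for PRR7, from -1.92 to 0.04 for LUX, from -1.04 to 0.08 for RVE8, from -0.86 to 0.50 for ELF3 and from -2.50 to 0.54 for PRR5. These libraries also enter the comparison of the accessions in O3, so the TOC1 value there is not independent of this one.

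**Figure D4:**
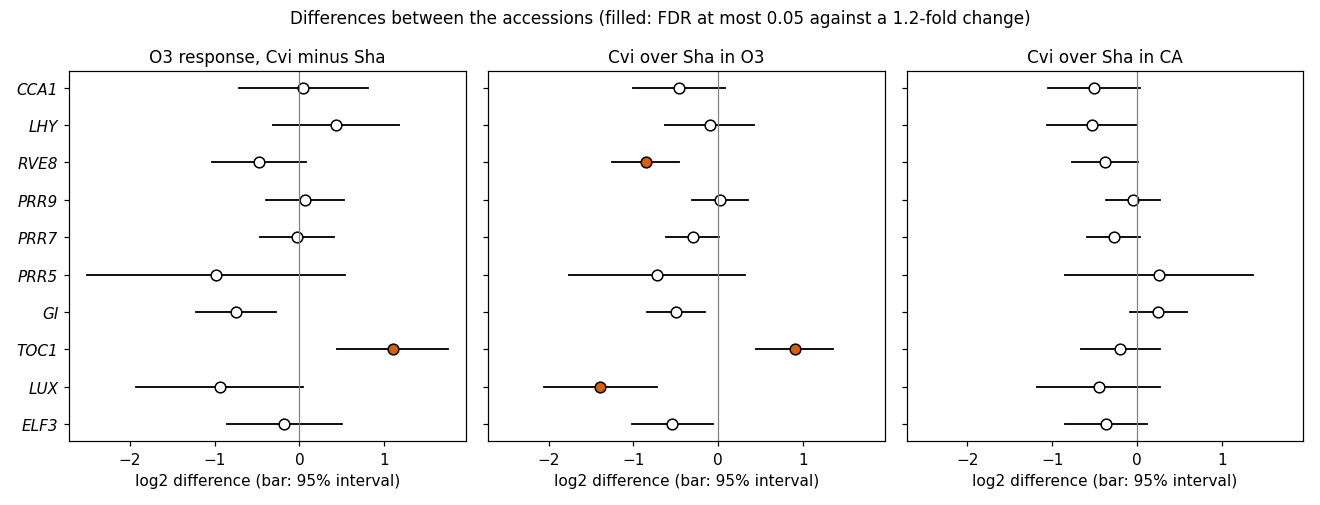
Log2 differences between the accessions for the 10 clock genes (rows) in the O3 response (left), in O3 (middle) and in CA (right), with bars of 95% intervals and filled points at FDR of at most 0.05. TOC1 was filled at 1.1 in the response and 0.90 in O3, LUX at -1.39 and RVE8 at -0.86 in O3, and no point was filled in CA.

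Around the core, 64 further genes of the clock, its light input and its output were measured, from lists that do not hold the 10 members. In Sha O3, 6 were called higher and 17 lower, and in Cvi 9 were called higher and 25 lower, where all 64 had a median log2 fold change of -0.30 in Sha, and of -0.36 in Cvi, against 0 for all genes in either accession. As given above, 17.9% of all genes were called higher and 16.6% lower in Sha, and 24.3% higher and 23.2% lower in Cvi. Of all 28549 genes, 19107 averaged 1 CPM or more, against 56 of the 64, so the sets differ in level. With a stricter filter on low counts (filterByExpr), 5624 of 21321 genes were called higher and 4369 lower in Sha. In Cvi these counts were 6609 and 5911, and the median of all genes was then 0.04 in Sha and -0.01 in Cvi. Of the 64 genes, 8 averaged under 1 CPM, and 3 of these were among the 9 called higher in Cvi (FKF1, COR27 and AT4G33980). With DESeq2, or without the first Cvi CA library, 5 were called higher in Cvi. In both accessions 5 were called higher and 15 lower, and 0 were called in opposite directions. 1 further listed gene was not analysed here.

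Of 11 REVEILLE and LNK genes, relatives and partners of RVE8, 1 was called higher and 6 lower in Sha, and 1 higher and 5 lower in Cvi, with median log2 fold changes of -0.63 in Sha and -0.44 in Cvi. ASG4, a REVEILLE-family MYB gene, averaged 1.62 ± 1.31 CPM in Sha O3 and 7.83 ± 3.48 CPM in Sha CA, and 1.25 ± 0.64 CPM in Cvi O3 and 5.13 ± 1.54 CPM in Cvi CA, with log2 fold changes of -2.28 in Sha and -2.02 in Cvi. LNK2, a coactivator of RVE8, fell by 0.89 on the log2 scale in Sha and by 0.65 in Cvi. LNK2 overlaps AT3G08405 and AT3G54490 on the opposite strand, and ASG4 overlaps AT1G01510 on the same strand. RVE7 fell by 1.38 in Sha and by 0.90 in Cvi, but its reads could be shared with AT3G10113 over 615 bases that are 99.8% identical. RVE2 went the other way, at 1.59 in Sha and 1.78 in Cvi. The RVE2 call in Sha was lost without the second Sha CA library (log2 fold change 1.26) or the third Sha O3 library (1.02), and the Cvi calls of LNK2 and RVE7 were each lost without any 1 of 3 Cvi libraries, at -0.57 to -0.59 for LNK2 and -0.60 to -0.87 for RVE7. With DESeq2 the calls of RVE2 in Sha (FDR = 0.0569) and of LNK2 (FDR = 0.128) and RVE7 (FDR = 0.177) in Cvi were lost as well.

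The LUX homologue BOA was the gene with the largest increase of the lists in both accessions. It was at 0.94, 0.66 and 1.06 CPM in Sha O3, from 13, 11 and 28 counts, against 1, 2 and 4 counts in Sha CA. In Cvi it was at 3.82, 4.41 and 2.79 CPM in O3, from 77, 89 and 80 counts, against 0, 3 and 2 counts in CA. In Cvi CA all libraries were at the floor of 3 counts, so BOA was at least 32.3-fold higher in Cvi O3, computed against 3 counts per library. The log2 fold change in Sha was 2.74, and its overlap with AT5G59580 on the opposite strand makes these values uncertain. CHE, a TCP protein that represses CCA1, was at 14.1 ± 0.33 CPM in Sha O3 and 44.9 ± 10.2 CPM in Sha CA, and at 19.0 ± 2.19 CPM in Cvi O3 and 47.3 ± 4.00 CPM in Cvi CA (SD, n = 3 each), so that it fell by 1.67 on the log2 scale in Sha and by 1.32 in Cvi.

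Of 8 genes in the list with ELF4, its relatives, PRR3, BOA and CHE, 1 was called higher and 1 lower in Sha, and 1 higher and 2 lower in Cvi, with medians of 0.42 in Sha and -0.22 in Cvi. Of the 3 ZEITLUPE-family genes, which encode blue-light receptors that target clock proteins for breakdown, 0 were called in Sha by edgeR, and 1 was called higher and 1 lower in Cvi, with medians of 0.32 in Sha and 0.21 in Cvi. The higher one, FKF1, had 2, 4 and 11 counts in Cvi O3, against 0, 2 and 2 counts in Cvi CA, where every library was under the floor of 3 counts. Among 11 other clock regulators, 1 was called higher and 0 lower in Sha and 1 higher and 2 lower in Cvi, with medians of 0.14 in Sha and -0.15 in Cvi. TEJ, a poly(ADP-ribose) glycohydrolase, was called higher in both, with a log2 fold change of 1.09 in Sha and of 0.93 in Cvi. The TEJ call was lost without the second Sha O3 library (0.58 in Sha) and without any 1 of 3 Cvi libraries (0.80 to 0.87 in Cvi), and in Cvi with DESeq2 (FDR = 0.0610).

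Of 13 light input genes, 1 was called higher and 4 lower in Sha, and 2 higher and 7 lower in Cvi, with medians of -0.38 in Sha and -0.75 in Cvi. PHYB, the main red-light receptor of green tissue, fell by 0.71 on the log2 scale in Sha and by 1.46 in Cvi. CRY1, a blue-light receptor, fell by 0.76 in Sha and by 1.33 in Cvi, and DET1, a repressor of light signalling, by 0.61 in Sha and 1.71 in Cvi. PHYD, the close relative of PHYB, was at 51.9 ± 20.5 CPM in Sha O3 and 12.1 ± 1.91 CPM in Sha CA, and at 35.6 ± 3.77 CPM in Cvi O3 and 13.0 ± 0.38 CPM in Cvi CA (SD, n = 3 each), with log2 fold changes of 2.10 in Sha and 1.46 in Cvi. The DET1 call in Sha was lost without the second Sha CA library (log2 fold change -0.50), the first Sha O3 library (-0.52) or the third Sha O3 library (-0.41), and with DESeq2 (FDR = 0.118).

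Of 18 clock output genes, 2 were called higher and 6 lower in Sha, and 3 higher and 8 lower in Cvi, with medians of -0.39 in Sha and -0.60 in Cvi. The higher calls in Cvi held a pair of genes with very few counts, COR27 (4, 4 and 0 counts in Cvi O3, against 0, 1 and 0 counts in Cvi CA) and AT4G33980 (3, 9 and 20 counts in Cvi O3, against 0, 3 and 1 counts in Cvi CA). GBSS1, a starch synthase under direct control of CCA1 and LHY, fell by 2.44 on the log2 scale in Sha and by 2.25 in Cvi. It was at 61.1, 80.6 and 31.5 CPM in Sha O3, against 248.1, 502.7 and 186.0 CPM in Sha CA, and at 45.1, 41.1 and 44.1 CPM in Cvi O3, against 249.1, 198.7 and 171.1 CPM in Cvi CA. As for CCA1, the second Sha library was the highest of its group in both treatments. PIF4, a growth-promoting bHLH factor repressed by the evening complex, fell by 1.94 in Sha and by 2.05 in Cvi. CDF2, a DOF repressor of the flowering gene CO, rose by 1.80 in Sha and 2.14 in Cvi. COL2, a relative of CO, fell by 2.76 in Sha and by 0.65 in Cvi, where the call was lost without any 1 of 4 libraries, at -0.43 to -0.59 (the first and second of Cvi CA, the first of Cvi O3 and the third of Sha CA). COL2 overlaps AT3G02370 and AT3G02390 on the opposite strand.

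**Figure D5:**
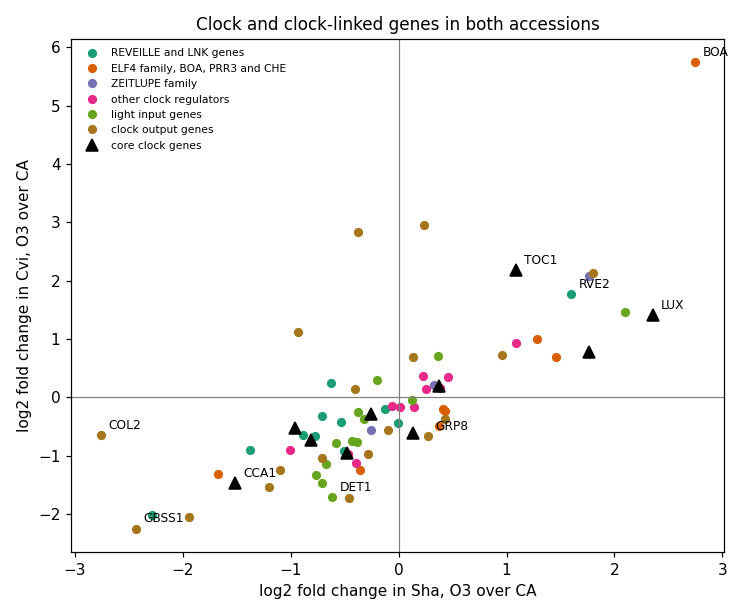
Log2 fold change of O3 over CA in Sha (x axis) and in Cvi (y axis) of the 10 core clock genes (black triangles) and the 64 other listed genes (coloured by list). The core genes CCA1 (-1.51 in Sha, -1.47 in Cvi) and TOC1 (1.09 in Sha, 2.18 in Cvi) lie at the lower left and the upper right, LUX is the core gene farthest to the right at 2.35 in Sha, and BOA is the highest point on the Cvi axis, where its CA libraries were at 3 counts or fewer.

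The genes whose log2 CPM most resembled each member over the 12 libraries, among 19107 genes that averaged 1 CPM or more, were picked by Pearson r as a description with no test. Since treatment separates the libraries, high values are common. For CCA1 they were AT5G44660 (r = 0.98) and GBSS1 (r = 0.98), and for LHY AT1G76720 (r = 0.93) and AT2G45245 (r = 0.93). RVE8 came closest to AGL20 (r = 0.98) and AT3G04485 (r = 0.96), PRR9 to TAO1 (r = 0.98) and PSK3 (r = 0.98), and PRR7 to AT1G05150 (r = 0.97) and TUB1 (r = 0.96). PRR5 came closest to AT5G25210 (r = 0.94) and AT5G48690 (r = 0.93), and TOC1 to ZAT7 (r = 0.99) and Prx37 (r = 0.99). The closest to LUX were AT4G27585 (r = 0.97) and AT4G32390 (r = 0.97), to ELF3 BRM (r = 0.92) and AT1G78940 (r = 0.90), and to GI PAD2 (r = 0.89) and AT1G52550 (r = 0.88). GI thus had the weakest best match of the 10.

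With the group means taken out, the closest gene was AT3G61950 for CCA1 (r = 0.95), AT1G49740 for LHY (r = 0.97), APC7 for RVE8 (r = 0.95), AT1G58230 for PRR9 (r = 0.96), AT2G04620 for PRR7 (r = 0.96), NAC102 for PRR5 (r = 0.97), AT2G35290 for GI (r = 0.92), BGAL10 for TOC1 (r = 0.97), APO4 for LUX (r = 0.98) and HAC5 for ELF3 (r = 0.97). None of these was the closest by level as well.

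The tissue label was checked against defining markers. The leaf mesophyll markers RBCS1A, RCA, CA1 and LHCB1.3 were abundant in all 12 libraries, the seed markers CRA1 and AT2S1 and the root hair marker EXPA7 were at 3 counts or fewer in all 12, and the root marker PYK10 lay between 9.71 and 98.9 CPM. The flower marker AG averaged 2.23 CPM in Sha O3 and 5.26 CPM in Sha CA, and 0.10 CPM in Cvi O3 and 0.20 CPM in Cvi CA. The flower marker PI went the other way, at 1.05 CPM in Sha O3 and 0.74 CPM in Sha CA, and 0.28 CPM in Cvi O3 and 0.12 CPM in Cvi CA. AP3, also a flower marker, averaged 0.31 CPM in Sha O3 and 0.15 CPM in Sha CA, and 0 CPM in Cvi O3 and 0.06 CPM in Cvi CA. The mesophyll sum moved with the lower morning genes, at 6933 to 16736 CPM in Sha O3 and 30999 to 44032 CPM in Sha CA, and at 16880 to 20726 CPM in Cvi O3 and 45395 to 50827 CPM in Cvi CA. The summed guard cell markers KAT1 and MYB60 were lower too, at 35.0 to 42.3 CPM in Sha O3 and 45.5 to 56.9 CPM in Sha CA, and at 26.1 to 27.5 CPM in Cvi O3 and 43.2 to 54.1 CPM in Cvi CA, whereas the phloem marker SUC2 overlapped between O3 and CA in both accessions. All 4 mesophyll and both guard cell genes were lower on average in O3 in both accessions, and their part in the clock values was not tested.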

How the data were processed

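RNA-seq libraries of 12 rosette samples were grouped by accession and treatment from their titles. The authors trimmed reads with Trimmomatic 0.33 and assigned them to the AtRTD2 transcript set, which is built on Col-0, with kallisto. The genome build is not given in the sources used here. The deposited values are estimated counts per locus, averaged by the authors over resampled kallisto runs and not normalised. Sequence differences from Col-0 can cost reads of Sha or Cvi or move them to a similar gene, which bears on the comparisons between accessions. Non-whole values made up 69.4% of the entries and were rounded here. Another 6 columns of sample values match none of these samples and were left out.

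Counts were analysed in R 4.3.3 with edgeR 4.0.16, using TMM scaling, a negative binomial fit of all 12 libraries with 1 mean per group, and a likelihood-ratio test against a 1.2-fold change (glmTreat). P-values were adjusted by Benjamini-Hochberg over 28549 genes, and FDR of at most 0.05 was called. The labels call the replicates biological, with no further detail, and p-values measure the spread between these samples. Floors of 3 counts cover counting error only, and library totals between 10794686 and 33571953 counts set the precision of scarce transcripts such as PRR5, LUX and BOA. Likeness used log2 CPM with a prior count of 2 over genes averaging 1 CPM or more.

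The members and lists were chosen with earlier results of these data known. Named genes were the 10 members, up to 4 genes per list called alike in both accessions averaging 1 CPM or more (largest mean change), up to 4 listed genes called for the difference in response, and, for each member, 2 genes closest in level and 1 closest in deviations. Alternatives were the quasi-likelihood test, DESeq2 1.42.0, RLE scaling, filterByExpr, other minimum changes, compared groups only, replicate blocks and each library left out. A minimum log2 change of 1.2, as the study's text words it, was among the other minimum changes. The omission of both second Sha libraries was chosen after seeing the data. Same-numbered libraries deviated from their group means together in Sha (r = 0.38, 0.59 and 0.41 between O3 and CA over 19107 genes) and between Cvi and Sha in CA (r = 0.26, 0.41 and 0.22), which was taken as pairing from the data. They did not in Cvi (r = 0.13, -0.10 and -0.04) or between the accessions in O3 (r = 0.03, -0.15 and -0.01). For replicates 1, 2 and 3, the highest r with a library of another number was 0.25, -0.41 and 0.24 in Sha. Between the accessions in CA it was -0.02, -0.19 and 0.16. Transcripts were compared with blastn 2.17.0. No member had a copy with 90% identity or more along 50% or more of its transcript.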

Additional observations from a re-analysis of the deposited data

Results flagged for a closer look

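The responses of the accessions differed by the interaction test of edgeR for 1 of 10 core clock genes and 4 of 64 listed genes. Of the 64, 2 were called with a higher and 2 with a lower response in Cvi. Over all genes, 6.33% were called higher and 2.6% lower. TOC1 had a log2 response of 2.18 in Cvi and 1.09 in Sha, a difference of 1.1 (edgeR FDR = 0.0305). Its call was lost in 10 of 21 alternative runs, among them the quasi-likelihood test and DESeq2. TOC1 was higher in O3 in all 3 libraries of each accession, a direction that was part of the choice of members. COL2 had -0.65 in Cvi and -2.76 in Sha, a difference of 2.11, with 18.4, 31.9 and 32.3 CPM in Cvi O3, against 48.1, 46.4 and 35.0 CPM in Cvi CA, and 12.8, 9.29 and 9.20 CPM in Sha O3, against 72.6, 66.1 and 72.2 CPM in Sha CA. As given above, COL2 overlaps genes on the opposite strand. DET1 had -1.71 in Cvi and -0.61 in Sha, a difference of -1.09, with 13.4, 12.9 and 12.9 CPM in Cvi O3, against 40.8, 45.4 and 41.9 CPM in Cvi CA.

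GRP8, an RNA-binding protein of an evening feedback loop, had -0.66 in Cvi and 0.27 in Sha, a difference of -0.93. It was at 71.6, 63.1 and 75.0 CPM in Cvi O3, against 89.8, 108.3 and 133.2 CPM in Cvi CA, and at 142.9, 161.0 and 167.3 CPM in Sha O3, against 136.7, 138.7 and 115.7 CPM in Sha CA. The GRP8 call was lost with DESeq2 and without the third Cvi CA, the second Cvi O3 or the third Sha CA library, where the difference was -0.77, -0.86 and -0.87. BOA had a fitted difference of 3.00, which rests on 0, 3 and 2 counts in Cvi CA and 1, 2 and 4 counts in Sha CA. Its call was lost with the quasi-likelihood test and without the first Cvi CA (2.34), the second Sha CA (2.94) or the third Sha CA library (2.89).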

How the results depend on the processing

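Over 22 alternatives, no value of the 10 members in the 3 tested contrasts changed sign while called. Of 630 such values, 600 stayed on their side of the threshold, 13 lost and 17 gained a call. The count of members differing between Cvi and Sha in CA was 0 in every alternative run. In O3 it was 3, and became 0 with a log2 change of at least 1.2 and 5 without both second Sha libraries, with a range of 3 to 5 when single libraries were left out. For the difference in response it was 1, and became 0 with the quasi-likelihood test, DESeq2 or a log2 change of at least 1.2, and 2 with no minimum change and without both second Sha libraries, with a range of 0 to 1 when single libraries were left out. With the replicate block it was 2, and with a block within each accession 2, by the addition of GI. No other count of members changed with the replicate block. The block within each accession was run only for the responses and their difference, not for Cvi against Sha in CA or O3. The log2 change of at least 1.2 left 7 of 23 other clock genes in Sha and 5 of 34 in Cvi. The count of members with a negative log2 fold change of O3 over CA was 5 in Sha in every alternative run, and 6 or 7 in Cvi. The COL2 call in Cvi was lost with RLE scaling (-0.56), filterByExpr (-0.55) and DESeq2 (-0.56, FDR = 0.350), and the RVE2 and DET1 calls in Sha with the compared groups only (1.62 and -0.57). DESeq2 called 1528 genes higher and 323 lower for the difference in response, against 1806 and 742. The cause of these changes was not tested. Depth limits the 8 listed genes under 1 CPM, BOA (0 to 4 counts in CA) and, among the members, PRR5 (as few as 11 counts in Sha CA).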
